A study of Homo sapiens with 8 samples.

Results

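The proteasome subunit genes were followed through total RNA and Ago2-bound RNA of KM-H2 cells, with and without a sponge against miR-155. Members were the genes whose symbol starts with PSMA, PSMB, PSMC, PSMD, PSME, PSMF or PSMG and goes on with a number. Of the 16065 probes in the deposited value table, 64 probes for 47 genes met this rule, among 8757 genes that could be named. Of these, 45 genes (61 probes) encode subunits of the proteasome, its activators, its inhibitor or its assembly chaperones. The other two genes, PSMC3IP and PSME3IP1 (3 probes), share only the start of the name with these subunits and encode proteins that bind one of them, so they are given apart.

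KM-H2 is a human Hodgkin lymphoma cell line. Cells had been transduced with the empty pMSCV-PIG vector (EV) or with the same vector carrying a miR-155 sponge (miR-155-sp), and GFP+ cells had been sorted. RNA came from the total lysate (T) or from an Ago2 immunoprecipitate (Ago2-IP, IP), giving total and Ago2-IP samples of EV cells and total and Ago2-IP samples of miR-155-sp cells. Each group was 1 RNA sample that was labelled once with Cy3 and once with Cy5 and hybridized to 2-color Agilent whole genome arrays, 4 arrays in all. Both cell populations thus carry the vector backbone and GFP, and each is 1 transduced population of 1 line. The labellings are technical, so no test between groups was possible, no p-value is given, and values are shown for both labellings or for both dye orientations. One orientation has the IP RNA in Cy5 and the total RNA in Cy3, and the other has the dyes exchanged.

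The proteasome is the main protease of the cytosol and nucleus and degrades proteins that carry ubiquitin chains. Its barrel-shaped 20S core is built from alpha rings, which gate the entry, and beta rings, which hold the catalytic subunits PSMB5, PSMB6 and PSMB7. Interferon-gamma and the NF-kappaB pathway, which is active in Hodgkin lymphoma cells, can induce PSMB8, PSMB9 and PSMB10, which replace these and form the immunoproteasome that serves peptide presentation on MHC class I. The 19S cap binds and unfolds ubiquitinated substrates. Ago2 is the Argonaute protein that carries microRNAs to their target mRNAs, and a transcript with a high IP/T ratio is over-represented in the Ago2-bound fraction. A sponge is a transcript with many binding sites for a microRNA, made to draw that microRNA away from its other targets.

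The microRNA shown here is the one that the sponge was built against. Whether it had a part in any change between EV and miR-155-sp cells was not tested. Its mature sequence in RefSeq (GRCh38.p14, chr21:25573983-25574006, plus strand, read 5′ to 3′) is given with the seed, bases 2 to 8, in capitals.
hsa-miR-155-5p: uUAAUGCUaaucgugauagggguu
A transcript site that pairs with the seed and has an A opposite base 1 reads AGCAUUAA. Transcripts of the proteasome genes were not searched for this site here.

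Each of the 64 probes rose well above background in every one of the 8 channels, and none was saturated. The largest difference between Cy3 and Cy5 labelling of one sample was 0.63 on the log2 scale. The median log2 signal of the 64 probes over the 4 samples was 12.03, beside 9.35 for all 17912 probes that passed the same filters on detection and labelling. Signals are spot intensities after quantile normalization and depend on the probe, so they rank no gene against another. Of the markers looked at, 9 of 12 genes listed for a Hodgkin line of B-cell origin (TNFRSF8, CD40, TRAF1, IRF4 and CCL17 among them) were well above background in all 4 total RNA channels. The B-cell gene CD79B was above it in none, and of 7 genes of other cell types on the array, CD4 alone was above it in all 4. The array also held 3 probes that met the name rule but were outside the deposited table. The probe for PSMA8, an alpha subunit of the testis, was above background in 0 channels. Further probes of PSMD5 (A_23_P43434, 4 channels) and PSMD9 (A_24_P116017, 5 channels) had log2 IP/T in EV cells of -0.32 and -0.11 and are not counted below. No probe could be named PSMB11 or PSMG4.

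Proteasome transcripts were mostly under-represented in Ago2-bound RNA of EV cells, while PSMB1, PSMG2, PSMB4, PSMB6 and 1 probe each of PSMC6 and PSMD1 were above 1 in both dye orientations. The median log2 IP/T was -0.39 for the 64 probes and -0.24 for all retained probes. A ratio below 1 in both dye orientations was found for 46 probes (71.9%), beside 51.6% of all retained probes and 53.9% of the 13432 that were, like these, well above background in 8 channels. A ratio above 1 in both was found for 8 probes (12.5%), beside 32.6% and 31.1%. The remaining 10 probes lay on different sides of 1 in the 2 orientations. At 2-fold, 4 probes (6.25%) for PSMB1 and PSMG2 reached an IP/T of 2 or more, beside 14.8% of all retained and 12.7% of the 8-channel probes. At 0.5 or less were 5 probes (7.81%), beside 12.9% and 11.9%. With normexp background correction in place of the scanner's processed signals, followed by loess, this split of 4 and 5 probes became 4 and 0. The split over all retained probes then went from 14.8% and 12.9% to 5.99% and 1.65%, and their median log2 IP/T from -0.24 to -0.015. The median of the proteasome probes became -0.23, so it lay 0.15 below that of all probes in the first processing and 0.22 below it in the other. The 184 retained probes of 83 cytosolic ribosomal protein genes had a median log2 IP/T of -0.38. The lists were not tested against each other.

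**Figure D1:**
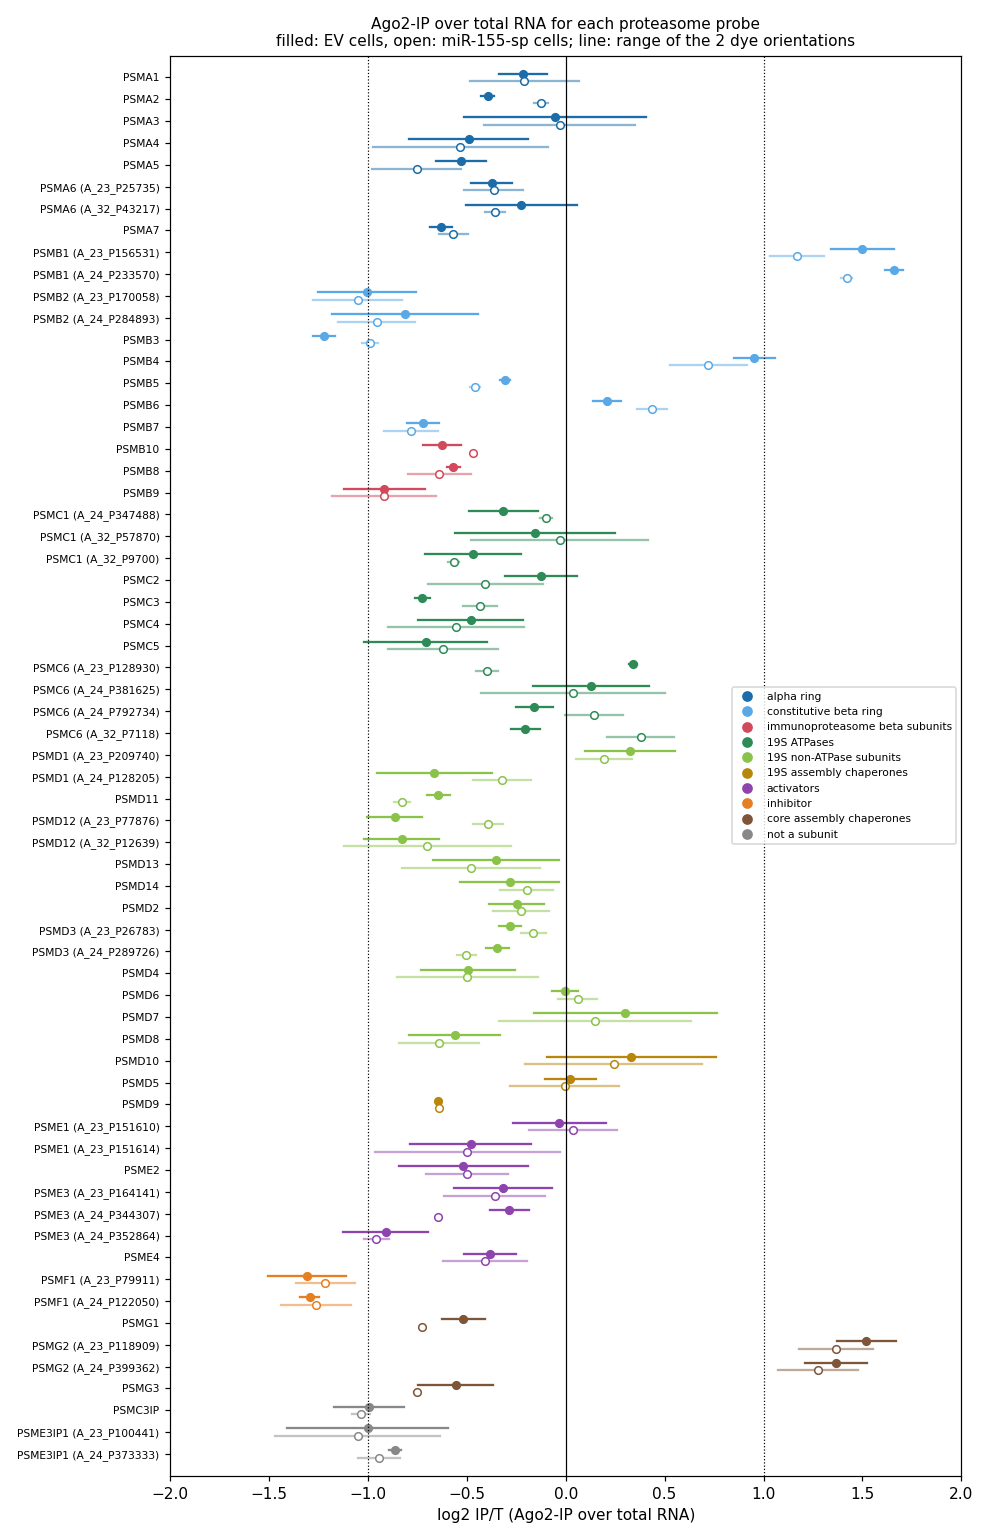
Log2 IP/T (horizontal axis) of each of the 64 proteasome probes (rows, colored by role) in EV cells (filled points) and miR-155-sp cells (open points), where a point is the mean and a line spans the 2 dye orientations. Dotted lines mark 2-fold; PSMB1 and PSMG2 lie beyond it on the right in both cell populations, PSMF1 beyond it on the left, and most other points lie between -1 and 0.

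**Figure D2:**
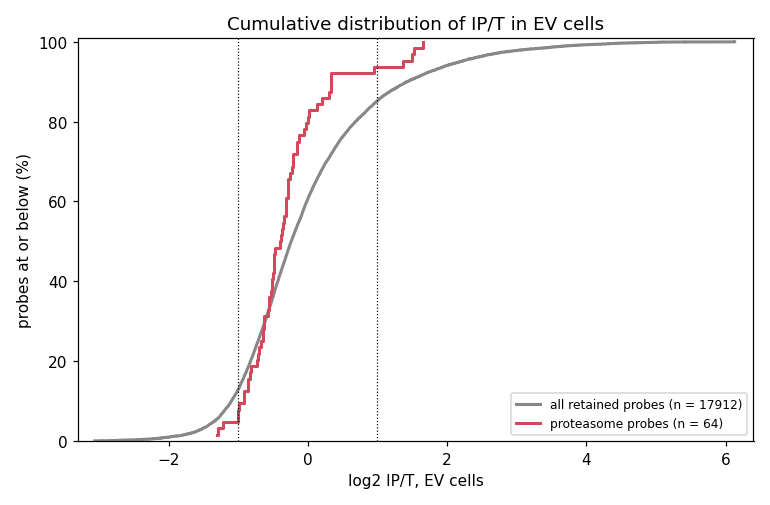
Percentage of probes (vertical axis) at or below each log2 IP/T in EV cells (horizontal axis), for the 64 proteasome probes and all 17912 retained probes, with dotted lines at 2-fold. The proteasome curve rises mostly between -1 and 0, with 52 of 64 probes below 0, beside 10864 of 17912. It runs out at 1.66, while the curve of all probes goes on to 6.13.

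The 7 alpha ring genes (8 probes) form the outer rings of the core, whose tails close or open the gate to the chamber. All 8 probes had a mean log2 IP/T below 0 in EV cells, from -0.63 for PSMA7 to -0.06 for PSMA3. In both orientations 6 of them were below 0, beside 51.6% of all retained probes. PSMA3 went from -0.52 with IP in Cy5 to 0.41 with IP in Cy3, so its sign depended on the dye. PSMA1, PSMA2, PSMA4 and PSMA5 lay at -0.21, -0.40, -0.49 and -0.53. Both PSMA6 probes were also below 0 on average, at -0.37 and -0.22.

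The constitutive beta ring held both the highest and some of the lowest ratios. PSMB1, a non-catalytic beta subunit, had the highest IP/T of the 47 genes. Its probe A_24_P233570 had log2 signals of 15.70 (Cy3) and 15.68 (Cy5) in EV total RNA and 17.39 and 17.32 in EV Ago2-IP RNA. In miR-155-sp cells the same probe gave 15.78 and 15.77 in total RNA and 17.16 and 17.23 in Ago2-IP RNA. Both Ago2-IP labellings were thus above both total RNA labellings in each cell population, and IP/T was 3.16 in EV and 2.68 in miR-155-sp cells. The second PSMB1 probe, A_23_P156531, gave 14.55 and 14.61 in EV total, 15.95 and 16.21 in EV Ago2-IP, 14.56 and 14.70 in miR-155-sp total and 15.74 and 15.87 in miR-155-sp Ago2-IP RNA. Again the fractions did not overlap, and IP/T was 2.83 and 2.25.

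PSMB4, a further non-catalytic subunit, was just under 2-fold. Its log2 signal was 15.44 and 15.23 in EV total, 16.29 and 16.30 in EV Ago2-IP, 15.57 and 15.31 in miR-155-sp total and 16.23 and 16.10 in miR-155-sp Ago2-IP RNA. IP/T was 1.94 in EV and 1.65 in miR-155-sp cells, without overlap of fractions in either. With the Cy5 labellings alone, or with the orientation that has IP in Cy3 alone, PSMB4 passed 2 in EV cells.

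PSMB3 and PSMB2, also non-catalytic beta subunits, stood at the other end. PSMB3 gave 12.52 and 12.56 in EV total against 11.28 and 11.35 in EV Ago2-IP RNA, and 12.42 and 12.42 in miR-155-sp total against 11.39 and 11.47 in Ago2-IP RNA. Its IP/T was 0.429 in EV and 0.504 in miR-155-sp cells, with IP signals below total signals in each. PSMB2 was measured by a pair of probes, at 0.499 and 0.570 in EV cells, and 0.482 and 0.516 with the sponge.

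The catalytic subunits differed among themselves in sign. PSMB6, which cuts after acidic residues, was slightly above 1, with log2 IP/T of 0.14 and 0.28 in the 2 orientations in EV cells (mean 0.21) and 0.36 and 0.51 in miR-155-sp cells (mean 0.44). PSMB5, which cuts after hydrophobic residues and is the main target of bortezomib, was below 1, at -0.28 and -0.33 in EV and -0.43 and -0.48 in miR-155-sp cells. PSMB7, which cuts after basic residues, was lower, at -0.80 and -0.64 in EV and -0.92 and -0.65 in miR-155-sp cells. Within the ring, 4 probes were above and 5 below 1 in both orientations in each cell population, and none was split. Over all retained probes in EV cells, 32.6% were above and 51.6% below 1 in both.

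All 3 measured immunoproteasome subunits were under-represented in Ago2-bound RNA. PSMB8, the counterpart of PSMB5, had log2 signals of 11.54 and 11.46 in EV total and 10.86 and 11.01 in EV Ago2-IP RNA, then 11.53 and 11.80 in miR-155-sp total and 11.00 and 11.05 in miR-155-sp Ago2-IP RNA. Its IP/T was 0.674 in EV and 0.642 in miR-155-sp cells. PSMB9, the counterpart of PSMB6, gave 13.52 and 13.72 in EV total, 12.60 and 12.81 in EV Ago2-IP, 13.49 and 13.82 in miR-155-sp total and 12.64 and 12.83 in miR-155-sp Ago2-IP RNA. IP/T of PSMB9 was 0.530 and 0.529, so EV and miR-155-sp cells differed by less than the gap between labellings. PSMB10, the counterpart of PSMB7, gave 14.12 and 14.22 in EV total, 13.50 and 13.59 in EV Ago2-IP, 14.16 and 14.09 in miR-155-sp total and 13.62 and 13.69 in miR-155-sp Ago2-IP RNA, with IP/T of 0.648 and 0.724. For each of the 3 genes, both Ago2-IP signals were below both total signals in EV and in miR-155-sp cells. Such separation of signals was not counted over all retained probes, for these or the other genes described. A ratio below 1 in both orientations was common in EV cells, at 51.6% of all retained and 53.9% of the 8-channel probes. It was found for 46 of the 64 proteasome probes, so it is not particular to the immunoproteasome. All were well above background in total RNA, so KM-H2 cells expressed the interferon-inducible subunits beside the constitutive ones. As these are bulk RNA samples, fewer cells with a transcript and less of it per cell cannot be told apart.

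**Figure D3:**
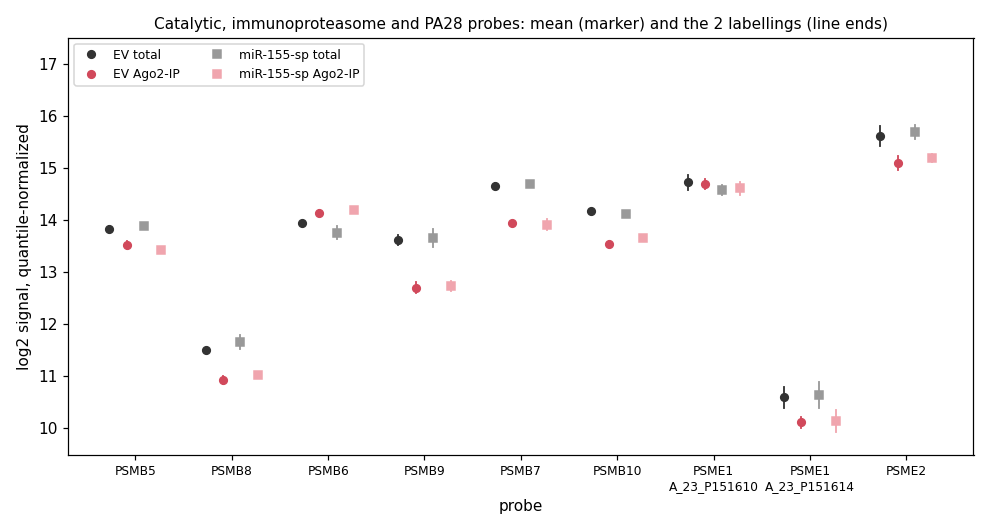
Log2 signal after quantile normalization (vertical axis) of the constitutive catalytic subunits, their immunoproteasome counterparts and the PA28 genes PSME1 and PSME2 (horizontal axis) in the 4 RNA samples; markers are means and line ends the Cy3 and Cy5 labellings. Ago2-IP lies below total RNA for PSMB8, PSMB9, PSMB10, PSMB5, PSMB7 and PSME2 and above it for PSMB6, and heights are not comparable between probes.

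The 6 ATPases of the 19S cap, which form the ring that unfolds substrates and feeds them into the core, had a median log2 IP/T of -0.21 over 11 probes in EV cells. PSMC3 and PSMC5 were lowest, at -0.73 and -0.71, and were below 0 in both orientations. PSMC4 lay at -0.48 and PSMC2 at -0.13, the latter with orientations of -0.31 and 0.06. The 3 probes of PSMC1 lay between -0.47 and -0.15. PSMC6 had the most probes, and its 4 values in EV cells were 0.34, 0.13, -0.16 and -0.21, on both sides of 0.

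The 11 non-ATPase genes of the cap, which include the ubiquitin receptor PSMD4 and the deubiquitinase PSMD14, had a median log2 IP/T of -0.35 over 14 probes. Below 0 in both orientations were 11 of these probes, beside 51.6% of all retained probes. PSMD12, a lid subunit, was lowest by both of its probes, at -0.86 and -0.83. PSMD11 lay at -0.64, PSMD8 at -0.56, PSMD4 at -0.49, PSMD13 at -0.35, PSMD14 at -0.28 and PSMD2 at -0.25. PSMD6 had an IP/T of 0.998. PSMD7, the inactive partner of PSMD14, had a mean of 0.30 made of -0.16 and 0.76 in the 2 orientations. The probes of PSMD1, the largest subunit of the cap, disagreed most of all genes, with 0.33 for A_23_P209740 and -0.67 for A_24_P128205. The chaperones of 19S base assembly were mixed, with PSMD9 at -0.64, PSMD5 at 0.02 and PSMD10, also known as gankyrin, at 0.33, where the orientations were 0.76 and -0.10.

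Activators bind the ends of the core in place of the cap. PSME1 and PSME2 form the interferon-inducible activator PA28, PSME3 forms the nuclear PA28-gamma, and PSME4 is PA200. Of their 7 probes, 6 were below 0 in both orientations in EV cells and none above, beside 51.6% and 32.6% of all retained probes. PSME2 gave 15.81 and 15.41 in EV total, 15.22 and 14.97 in EV Ago2-IP, 15.82 and 15.56 in miR-155-sp total and 15.27 and 15.12 in miR-155-sp Ago2-IP RNA, with IP/T of 0.699 and 0.708. PSME1 was 0.978 by one probe (A_23_P151610) and 0.716 by the other (A_23_P151614) in EV cells, and only the first had orientations on both sides of 1. The 3 PSME3 probes had IP/T of 0.802, 0.821 and 0.532, and PSME4 had 0.767.

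PSMF1, the inhibitor PI31, had the lowest IP/T of the 47 genes. Its probe A_23_P79911 had log2 signals of 10.60 and 10.58 in EV total, 9.47 and 9.09 in EV Ago2-IP, 10.67 and 10.48 in miR-155-sp total and 9.42 and 9.30 in miR-155-sp Ago2-IP RNA. The other probe, A_24_P122050, gave 10.15 and 10.23, 8.89 and 8.91, 10.10 and 10.13, and 9.04 and 8.66 in the same order. Total and Ago2-IP signals were apart for each probe in each cell population, and IP/T was 0.404 and 0.407 in EV and 0.431 and 0.417 in miR-155-sp cells. After normexp and loess both probes were still below 1 but no longer at 0.5 or less.

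The chaperones that assemble the core split by gene. PSMG1 and PSMG2 act as a pair that guides alpha ring formation, and PSMG3 works with PSMG4 at the same step. PSMG2 was enriched in Ago2-bound RNA by both probes. A_23_P118909 gave 10.20 and 10.05 in EV total, 11.72 and 11.57 in EV Ago2-IP, 10.19 and 10.07 in miR-155-sp total and 11.63 and 11.37 in miR-155-sp Ago2-IP RNA. A_24_P399362 gave 10.19 and 10.23, 11.44 and 11.72, 9.97 and 10.21, and 11.28 and 11.45 in the same order. All Ago2-IP signals were above all total signals, and IP/T was 2.87 and 2.58 in EV and 2.58 and 2.42 in miR-155-sp cells. PSMG1, the partner of PSMG2, was on the other side of 1 in EV cells (0.699), as was PSMG3 (0.680).

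Of the genes that only share the name, PSMC3IP had an IP/T of 0.502 in EV and 0.488 in miR-155-sp cells. PSME3IP1 had 0.50 and 0.55 by its probes in EV cells and 0.482 and 0.520 with the sponge. All 3 probes were below 1 in both orientations, as were 51.6% of all retained probes in EV cells.

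In miR-155-sp cells the picture was close to that in EV cells. The median log2 IP/T of the 64 probes was -0.45, beside -0.26 for all retained probes. Again 4 probes had an IP/T of 2 or more, beside 15.6% of all retained and 13.0% of the 8-channel probes, and these were the same probes of PSMB1 and PSMG2. At 0.5 or less were 5 probes, beside 14.1% and 11.9%, with PSMC3IP in place of PSMB3. A ratio below 1 in both orientations was found for 46 probes, beside 51.9% and 53.7%, and above 1 in both for 8, beside 32.4% and 31.0%. Across the 64 probes, the log2 ratios of the 2 cell populations correlated with r = 0.95. These points share the probe, its brightness and the dye on each array. Between the array pairs with exchanged dyes r was 0.80 in EV and 0.75 in miR-155-sp cells.

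**Figure D4:**
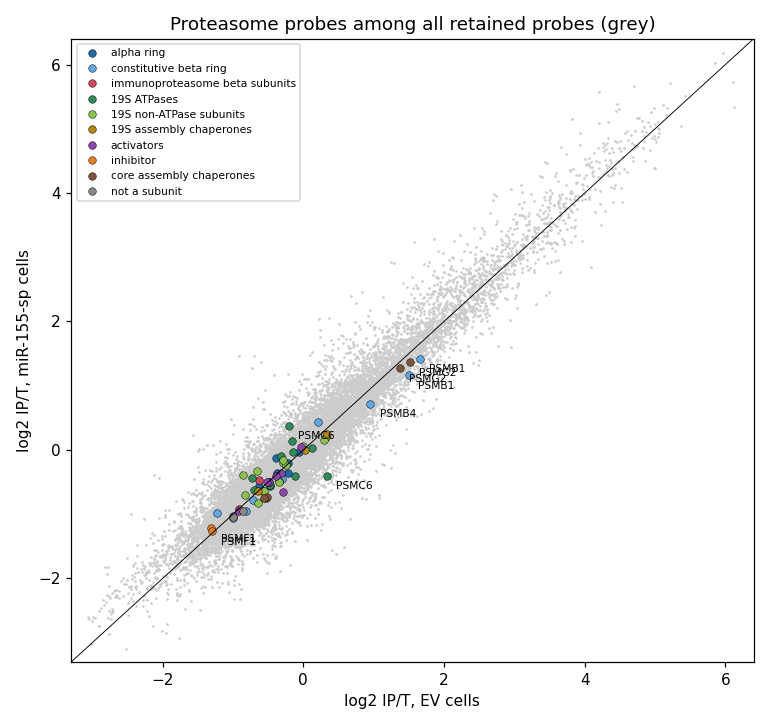
Log2 IP/T in miR-155-sp cells (vertical axis) against EV cells (horizontal axis) for all 17912 retained probes (grey) and the 64 proteasome probes (colored by role), with the line of equality. PSMB1, PSMB4 and PSMG2 lie slightly below the line, PSMF1 at the low end, and a PSMC6 probe lies furthest below the line at 0.34 and -0.40.

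With the sponge, no proteasome probe changed 2-fold in IP/T, in total RNA or in Ago2-IP RNA. The paper proposes that this sponge did not bind all miR-155 in KM-H2 cells, and whether this bears on these values was not tested. For IP/T, 0 of 64 probes were 2-fold higher, beside 0.748% of all retained and 0.0744% of the 8-channel probes, and 0 were 2-fold lower, beside 0.698% and 0.0223%. At 1.5-fold, 1 probe of PSMC6 was lower, beside 3.55% and 0.856%, and 0 were higher, beside 3.99% and 1.42%. The change had the same sign in both orientations for 18 probes that were higher (28.1%, beside 30.6% and 31.7%) and 22 that were lower (34.4%, beside 30.3% and 30.7%), and 24 were split. The median change was -0.04 on the log2 scale, which became 0.02 when the channels were scaled to a common median instead and 0.003 with the Cy3 labellings alone. The median size of the change, whatever its sign, was 0.09 for proteasome probes, 0.17 for all retained probes and 0.15 for the 8-channel probes. It was 0.11 for the cytosolic ribosomal protein probes. Median log2 signals were 12.03 for proteasome, 9.35 for all retained, 10.17 for 8-channel and 16.81 for ribosomal protein probes. Whether the size of the change goes with the signal was not tested. For 38 of 64 probes the change of IP/T was larger than the SD of the 2 orientations. For total RNA and Ago2-IP RNA, 31 and 30 probes changed by more than the SD of the 2 labellings. This was not counted over all retained probes, so nothing particular to the proteasome can be read from it. The changes of IP/T in the 2 orientations correlated with r = 0.41, beside 0.27 over all retained probes.

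In total RNA, 0 probes were 1.5-fold higher in miR-155-sp cells, beside 1.29% of all retained and 0.305% of the 8-channel probes, and 0 were 1.5-fold lower, beside 2.31% and 0.663%. At 2-fold the background was 0.0893% and 0% higher and 0.274% and 0.00744% lower. In both labellings 21 probes (32.8%) were higher, beside 32.4% and 33.5%, and 18 (28.1%) were lower, beside 32.9% and 33.5%. These shares are near the background. PSME3 probe A_24_P352864 had the largest rise, of 0.35, with labellings of 0.31 and 0.39, and another PSME3 probe, A_24_P344307, was at 0.28. The remaining PSME3 probe, A_23_P164141, was at 0.02. PSME4 had the largest fall, of -0.36, with -0.42 and -0.31, followed by PSMA4, also at -0.36, with -0.16 and -0.57. The immunoproteasome genes PSMB8, PSMB9 and PSMB10 changed by 0.16, 0.03 and -0.05, and their counterparts PSMB5, PSMB6 and PSMB7 by 0.06, -0.18 and 0.03.

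In Ago2-IP RNA, 0 probes passed 1.5-fold in either direction, beside 1.93% higher and 1.70% lower over all retained and 1.09% and 0.469% over the 8-channel probes. At 2-fold the background was 0.151% and 0.0372% higher and 0.0837% and 0% lower. In both labellings 17 probes were higher (26.6%, beside 30.5% and 32.0%) and 17 lower (26.6%, beside 32.6% and 32.7%). PSMC3 was higher by 0.43, with 0.42 and 0.44, and PSMD12 probe A_23_P77876 by 0.50, with 0.20 and 0.80. PSMA4 and PSME4 were lower, at -0.40 and -0.39, and as their total RNA was lower too, their IP/T changed by -0.04 and -0.03.

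**Figure D5:**
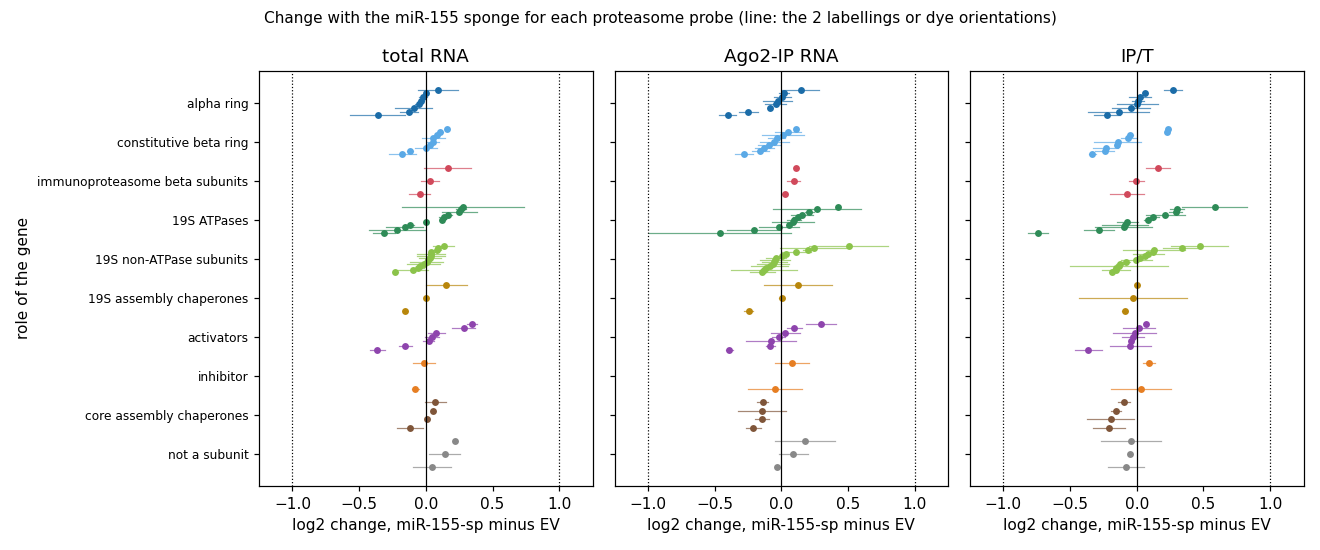
Log2 change in miR-155-sp against EV cells (horizontal axis) of total RNA, Ago2-IP RNA and IP/T for each proteasome probe, grouped by role (vertical axis); points are means, lines span the labellings or dye orientations, and dotted lines mark 2-fold. No point lies beyond 2-fold, and the widest spread is among the 19S ATPases, where PSMC6 probes lie at -0.74 and 0.58 in IP/T.

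PSMB1, PSMB4 and PSMG2, which were picked by their high IP/T in EV cells, had slightly lower ratios in miR-155-sp cells. As the picking and the change use the same EV values, some fall can come with the choice, and this is a description only. PSMB1 changed by -0.33 and -0.24 by its probes, PSMB4 by -0.23, and PSMG2 by -0.15 and -0.09, each with the same sign in both orientations. The Ago2-IP signal of these 5 probes was lower in both labellings, by 0.13 to 0.28 on the log2 scale, but with a common median it was 0.09 higher for PSMB1 probe A_24_P233570 and 0.01 higher for PSMB4. For PSMB1 and PSMB4 the total RNA signal was higher in both labellings, by 0.05 to 0.11, but for PSMB1 probe A_23_P156531 it was at -0.07 with normexp and loess. The change of PSMG2 probe A_24_P399362 became 0.06 with the Cy3 labellings alone. All changes were below 1.5-fold, and each rests on 1 RNA sample per group.

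Larger changes were found for some probes of the cap and of an activator. PSMC3 changed in IP/T by 0.29, with 0.34 and 0.24 in the orientations, and PSMD12 probe A_23_P77876 by 0.47, with 0.69 and 0.26. The second PSMD12 probe changed by 0.13, with -0.10 and 0.36. PSMD1 probe A_24_P128205 changed by 0.34 and the other PSMD1 probe by -0.13. With the Cy3 labellings alone, A_24_P128205 changed by -0.025 and PSMD12 probe A_23_P77876 by 0.089. With the Cy5 labellings alone the changes were 0.709 and 0.856, so both came mainly from Cy5. PSMC2 changed by -0.28 and PSME3 probe A_24_P344307 by -0.36, both lower in each orientation.

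PSMC6 held both extremes. Its probe A_23_P128930 gave 11.14 (Cy3) and 10.71 (Cy5) in EV total, 11.03 and 11.50 in EV Ago2-IP, 10.96 and 11.45 in miR-155-sp total and 11.10 and 10.51 in miR-155-sp Ago2-IP RNA. In Cy3 the 4 samples lay close together, and the difference came from the Cy5 labellings. IP/T changed by -0.74, but by 0.25 with the Cy3 labellings alone and by -1.73 with the Cy5 labellings alone. Probe A_32_P7118 gave 11.60 and 11.79, 11.66 and 11.32, 11.36 and 11.40, and 11.60 and 11.91 in the same order, for a change of 0.58. The remaining PSMC6 probes changed by -0.09 and 0.30. Probes of this 1 gene thus went both ways, and RefSeq names 3 pseudogenes of PSMC6, whose part in these signals was not tested.

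Among the 13 genes with several probes, 11 had the same sign of log2 IP/T in EV cells by all probes, PSMC6 and PSMD1 being the exceptions, and 10 had probes within 0.5 of each other. For the change with the sponge, 7 of 13 had one sign by all probes. Other genes with several probes were not counted in this way, so nothing particular to the proteasome can be read from these counts. PSMB1, PSMG2 and PSMF1, at the ends of the IP/T range, were each measured by 2 probes that differed by 0.16, 0.15 and 0.01 in EV cells. The other 34 genes had 1 probe. RefSeq lists named pseudogenes for 21 of the 47 genes, from 1 to 13 (PSMC1), and their part in the signals was not tested. PSMB1, PSMB4, PSMG2 and PSMF1 have none under their names.

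Genes that work with the proteasome but carry other names were looked at as a list of 18, of which 16 had retained probes (27 in all). Their median log2 IP/T in EV cells was -0.25. IP/T was 2 or more for 5 of these 27 probes, beside 14.8% of all retained probes. They were those of the deubiquitinase USP14 (2.28), of UBE3C (2.40, 6.54 and 4.74), a ubiquitin ligase bound to the cap, and 1 of the shuttle factor UBQLN1 (3.32, well above background in 6 channels). At 0.5 or less were 2 of the 27, beside 12.9% of all retained probes, and 1 of them was of NFE2L1 (0.496, 5 channels). The lists were not tested against each other. NFE2L1 encodes the transcription factor that drives proteasome genes when proteolysis is blocked. The cap subunits ADRM1 and SEM1, which the name rule leaves out, had log2 IP/T of -0.62 and -0.74 by the probes of ADRM1 and 0.37 for SEM1. The core assembly factor POMP had -0.60.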

How the data were processed

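Intensity values came, per the file headers, from Agilent Feature Extraction 10.7.3.1 (10.5.1.1 in the submitters' processing notes), which the authors ran and which subtracted background and normalized dyes within each array. The authors also deposited log2 values, quantile-normalized and filtered, with medians of 9.71 to 9.72 per channel. For the proteasome probes these differed from the values computed here by a median of 0.0013 and at most 0.020.

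Control and outlier spots were left out, log2 processed signals were quantile-normalized over 8 channels, and probes were retained if well above background in at least 4 channels and within 2-fold between labellings in all 4 samples (17912 of 41000, 43.7%). The mean of both labellings was taken, and log2 IP/T is IP minus total. Any overall difference between fractions is lost in quantile normalization, so ratios are relative. The arrays' number limits the precision. Between 38.8% and 61.9% of gene spots per channel were well above background.

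Probes were named through their accessions in a RefSeq table (GRCh38.p14), 23958 of 41000 matching. The arrays were designed on hg18, so gene coordinates are not given. Named were all probes of PSMB5 to PSMB10 and PSME1 to PSME4, the 5 highest and lowest in IP/T, the 5 largest changes of IP/T each way, 3 each of total and Ago2-IP RNA, and the 3 brightest and dimmest. Further probes were picked with their values in view. Some listed genes are not reported here. The members and lists were chosen with earlier results of these data known.

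Alternatives were a common median, normexp (offset 50) before loess and Aquantile or before quantile normalization (limma 3.58.1, R 4.3.3), deposited values, other filters, arithmetic means, single labellings or orientations, and gene means. Other steps used Python 3.11.15, numpy 2.4.6 and pandas 2.3.3, and the code was tested on simulated data.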

Additional observations from a re-analysis of the deposited data

Results flagged for a closer look

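Probes of PSMC6, an ATPase of the 19S cap, lay on opposite sides of an IP/T of 1 in EV and miR-155-sp cells in both dye orientations. Probe A_23_P128930 went from 0.34 to -0.40 on the log2 scale, a change of -0.74, and probe A_32_P7118 from -0.21 to 0.38, a change of 0.58. Neither difference was tested, as each group was 1 RNA sample. The probes of the same gene moved in opposite directions, and the value of the first changed sign with the labelling used.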

How the results depend on the processing

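With the main processing, the median log2 IP/T of the proteasome probes was -0.39 in EV and -0.45 in miR-155-sp cells, and stayed below 0 in all alternatives. In EV cells it was -0.449 with a common median, -0.231 with normexp and loess, and -0.480 over gene means. A common median or a 1.5-fold limit between labellings retained 61 of the 64 probes. In miR-155-sp cells it was -0.248 with normexp and loess and -0.338 with IP in Cy3 alone. Both normexp alternatives left 0 probes at 0.5 or less in either population, and there were 9 in EV cells with IP in Cy5 alone. Over gene means, 2 genes in EV and 2 in miR-155-sp cells were at 2 or more, and 2 and 3 at 0.5 or less.

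The medians of the change with the sponge, near 0 throughout, moved and in part changed sign. For IP/T the median was 0.0248 (common median), -0.0539 (normexp and loess), -0.0488 (normexp and quantile), -0.0373 (arithmetic mean), -0.0278 (IP in Cy5), -0.0298 (IP in Cy3) and -0.0259 (gene means). For total RNA it was 0.0056 (normexp and loess), 0.0108 (IP in Cy5) and -0.00026 (IP in Cy3). For Ago2-IP RNA it was 0.0734 (common median), -0.0144 (normexp and quantile), -0.0112 (arithmetic mean), -0.0048 (IP in Cy5) and 0.00012 (IP in Cy3).

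With the Cy5 or the Cy3 labellings alone, the median log2 IP/T was -0.439 to -0.411 in EV cells, and the medians of the change were -0.0132 to 0.0029 for IP/T, -0.00026 to 0.0108 for total RNA and -0.0048 to 0.00012 for Ago2-IP RNA. Between 3 and 7 probes were then at an IP/T of 0.5 or less in miR-155-sp cells.

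Of 126 alternative values of these 9 results, 89 moved by less than the spread, and 37 moved. Of 1233 alternative values of single named probes 1065 moved by less than the spread, and of 252 medians of role groups 203 did. All these counts include settings that could not move a value. They are the settings with no detection filter, with no filter on labellings and with detection in 8 channels. Every proteasome probe had passed each of these filters, so every value stayed as in the main processing. The values that moved by less than the spread are therefore partly repeats of the main values. The change of IP/T of PSMC6 probe A_23_P128930 (-0.74), the only one past 1.5-fold, was -1.73 with the Cy5 labellings alone and turned to 0.25 with the Cy3 labellings alone. Why values moved was not tested. The replicate number is the dye, and 1 RNA sample per group limits every value. No paired analysis was possible because no test was run on 1 sample per group.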
